A study of Homo sapiens with 6 samples.

Results

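Translation initiation and elongation factors are the proteins that load ribosomes onto mRNA and move them along it. They were described here as 60 of the 16229 genes in the deposited count table. A gene was taken where its symbol starts with EIF1 to EIF6, EEF1 or EEF2, with the kinases named EIF2AK, the genes EEF1E1, EEF1AKMT and EEF2KMT, and pseudogenes left out. Of 70 symbols with these prefixes, 10 were left out by name, and no pseudogene was among them. EEF1AKNMT, an eEF1A methyltransferase, stayed in by the letter of that rule. The values of 1 Y-linked gene are not reported, so 59 genes are described. A filter on low counts left 57 of them in the test.

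The study measured polyadenylated or total RNA by sequencing in 6 libraries of MC38 cells, a colorectal cancer line labelled wild type. In 3 of them, GCA 1 to 3, the cells were treated with GCA for 24 hours, read here from the series' title as glycocholic acid, a conjugated bile acid. The other 3 libraries, CON 1 to 3, were the controls of the same line, kept for the same time without it. No source used here states the dose, and the titles of the GCA libraries read fa. Whether replicates were separate cultures is not labelled, so the p-values cover the spread among these libraries, and part of it may be technical.

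The line MC38 is generally described as murine, whereas the labels name human as the organism and the counted genes are human. The extraction protocol speaks of heart, and polyA RNA is labelled beside a kit for total RNA with ribosomal RNA removal. Of 12 markers of colorectal epithelium, 8 passed the filter on low counts. KRT8 averaged 6994 CPM in GCA and 4957 CPM in CON, EPCAM averaged 317 CPM in GCA and 276 CPM in CON, and KRT20, VIL1, LGR5, ASCL2, CDX1 and CEACAM5 were low or below the filter. The summed level of the 12 markers was 11132 to 12703 CPM in GCA against 7918 to 10110 CPM in CON, and the groups did not overlap. Cardiomyocyte markers summed to 0.198 to 0.733 CPM in GCA and 0.0557 to 0.261 CPM in CON. Leukocyte markers summed to 16.2 to 17.8 CPM in GCA and 5.21 to 11.4 CPM in CON, and fibroblast and endothelial markers to 16.6 to 18.5 CPM in GCA and 11.96 to 13.3 CPM in CON. Nearly all of the leukocyte sum was CORO1A, at 15.5 to 17.2 CPM in GCA and 5.01 to 11.3 CPM in CON. PTPRC and CD3E had at most 1 count in a library. COL1A1 made up most of the other sum, at 13.9 to 16.4 CPM in GCA and 10.7 to 11.5 CPM in CON. Whether these shifts play a part in the results below was not tested. In bulk RNA, fewer cells of a type and less RNA per cell cannot be told apart. Total counts were 19484569 to 20531612 in GCA and 18057453 to 19110987 in CON, and CON 1 stood apart from CON 2 and CON 3 on the second principal component.

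Translation starts when eIF2, charged with GTP and the initiator tRNA, joins eIF1, eIF1A, eIF3 and eIF5 on the small ribosomal subunit. The eIF4F complex, made of the cap-binding eIF4E, the scaffold eIF4G and the helicase eIF4A, brings that assembly to the mRNA, and eIF5B joins the large subunit. Phosphorylation of eIF2 blocks its exchange factor eIF2B and favours translation of the transcription factor ATF4, while mTORC1 frees eIF4E by phosphorylating the 4E-binding proteins. In elongation, eEF1A delivers each aminoacyl-tRNA, the eEF1B complex recharges eEF1A with GTP, and eEF2 moves the ribosome along.

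Many translation factor mRNAs carry a 5′ terminal oligopyrimidine tract, a C at the start followed by further pyrimidines, through which mTORC1 and the protein LARP1 control their use. The start windows below show which of the factors discussed here carry such a run at the start site annotated by RefSeq. Each runs 10 bases before and 20 bases from the start, 5′ to 3′ on the gene's own strand in GRCh38.p14, and capitals mark the pyrimidine run from the start base. The annotated start need not be the one used in these cells.
EIF2S3: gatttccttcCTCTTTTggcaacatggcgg
EIF3D: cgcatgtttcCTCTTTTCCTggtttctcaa
EIF3M: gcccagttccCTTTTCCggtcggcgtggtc
EIF2A: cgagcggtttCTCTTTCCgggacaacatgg
EIF2S1: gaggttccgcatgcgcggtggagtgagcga
EIF2B1: gtacggaagtgcgccggaagtggggtgcgg
EIF1AX: gagtcgcggcgccatttgctgccgccgagc
EEF1A1: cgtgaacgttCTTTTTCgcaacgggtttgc
EEF2: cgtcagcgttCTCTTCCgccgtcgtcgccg
EIF4B: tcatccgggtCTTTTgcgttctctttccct
EIF3F: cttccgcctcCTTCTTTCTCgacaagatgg
EEF1G: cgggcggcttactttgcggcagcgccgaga

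The windows are chrX:24054946-24054975 on the plus strand for EIF2S3, chr22:36529147-36529176 on the minus strand for EIF3D, chr11:32583821-32583850 on the plus strand for EIF3M and chr3:150546777-150546806 on the plus strand for EIF2A. Those without a run are chr14:67360318-67360347 on the plus strand for EIF2S1, chr12:123633667-123633696 on the minus strand for EIF2B1, chrX:20141819-20141848 on the minus strand for EIF1AX and chr11:62573872-62573901 on the minus strand for EEF1G. The rest are chr6:73521013-73521042 on the minus strand for EEF1A1, chr19:3985444-3985473 on the minus strand for EEF2, chr12:53006446-53006475 on the plus strand for EIF4B and chr11:7987327-7987356 on the plus strand for EIF3F. RefSeq's promoter table matched 48 of the genes, with 65 start sites. EIF4EBP1, EIF2S2, EIF3H and EEF1A2 were among the genes without a match. A C followed by at least 4 further C or T opened 13 of these 65 sites, or 20%, against 4.07% of 35116 sites over all genes.

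Across the 57 tested genes, 18 fell in GCA and 1 rose. All 18 that fell have symbols that start with EIF, counted below as initiation factors. The 1 that rose was the elongation factor gene EEF1A2. Calls were made at an adjusted p under 0.05 (edgeR's quasi-likelihood test, Benjamini-Hochberg over all 12604 tested genes), with n = 3 per group here and throughout. The members called made up 33.3% of those tested, against 36.4% of all tested genes, so being called was no commoner among them than in the background. The 18 lower genes made up 31.6% of those tested, against 18.1% of all genes, and the 1 higher gene compares with 18.3% of all genes. The median log2 fold change, GCA over CON, was -0.31 for the 57 genes and -0.04 for all genes tested. In 26 genes every GCA library lay below every CON library, and this held for 24.3% of all genes.

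The genes that fell all lay among the initiation factors, taken here as all genes whose symbol starts with EIF. That group by name also holds EIF5A, inhibitors such as EIF4EBP1, the repressor EIF4E2 and EIF1AD, a protein with an eIF1A-like domain. Among 49 tested initiation factor genes, 18 fell, none rose, and the median log2 fold change was -0.35. DESeq2's Wald test called 0 of them higher, and at an unadjusted p under 0.05 in edgeR's test 1 was higher, EIF3CL. Of 6 genes for the eEF1 and eEF2 proteins, EEF1A2 rose and the median was 0.23. With a correction for GC content and length, given below, the medians were -0.25 for initiation factors and -0.02 for elongation factors. None of the 6 elongation factor genes was then called. No test of the difference between these 2 groups of genes was made. Initiation factors together took 1.07%, 1.04% and 0.986% of all counts in GCA 1 to 3, against 1.33%, 1.29% and 1.28% in CON 1 to 3. The GCA libraries were lower, without overlap. Elongation factors took 2.03%, 2.40% and 2.35% in GCA 1 to 3, against 1.97%, 2.36% and 2.51% in CON 1 to 3, and these groups overlapped.

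The number of calls moved with single libraries. Without CON 1, 31 genes were called, 25 lower and 6 higher, while 52.6% of all genes were called and 27.3% were lower. Without replicate 1 of both groups the counts were 37 genes, 30 lower and 7 higher, beside 58.5% of all genes called and 29.3% lower. Without GCA 3, 11 genes were called, 9 lower and 2 higher, beside 20.6% of all genes called and 8.88% lower, and the higher ones were EIF3CL and EIF4E1B. With the replicate number as a block, 25 genes were called, 24 lower and 1 higher, beside 41.0% of all genes called and 21.0% lower. In 7 genes, EIF1AD, EIF1AX, EIF2B1, EIF2B3, EIF2S1, EIF2S3 and EIF3J, the call held in all 21 alternative settings run.

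**Figure D1:**
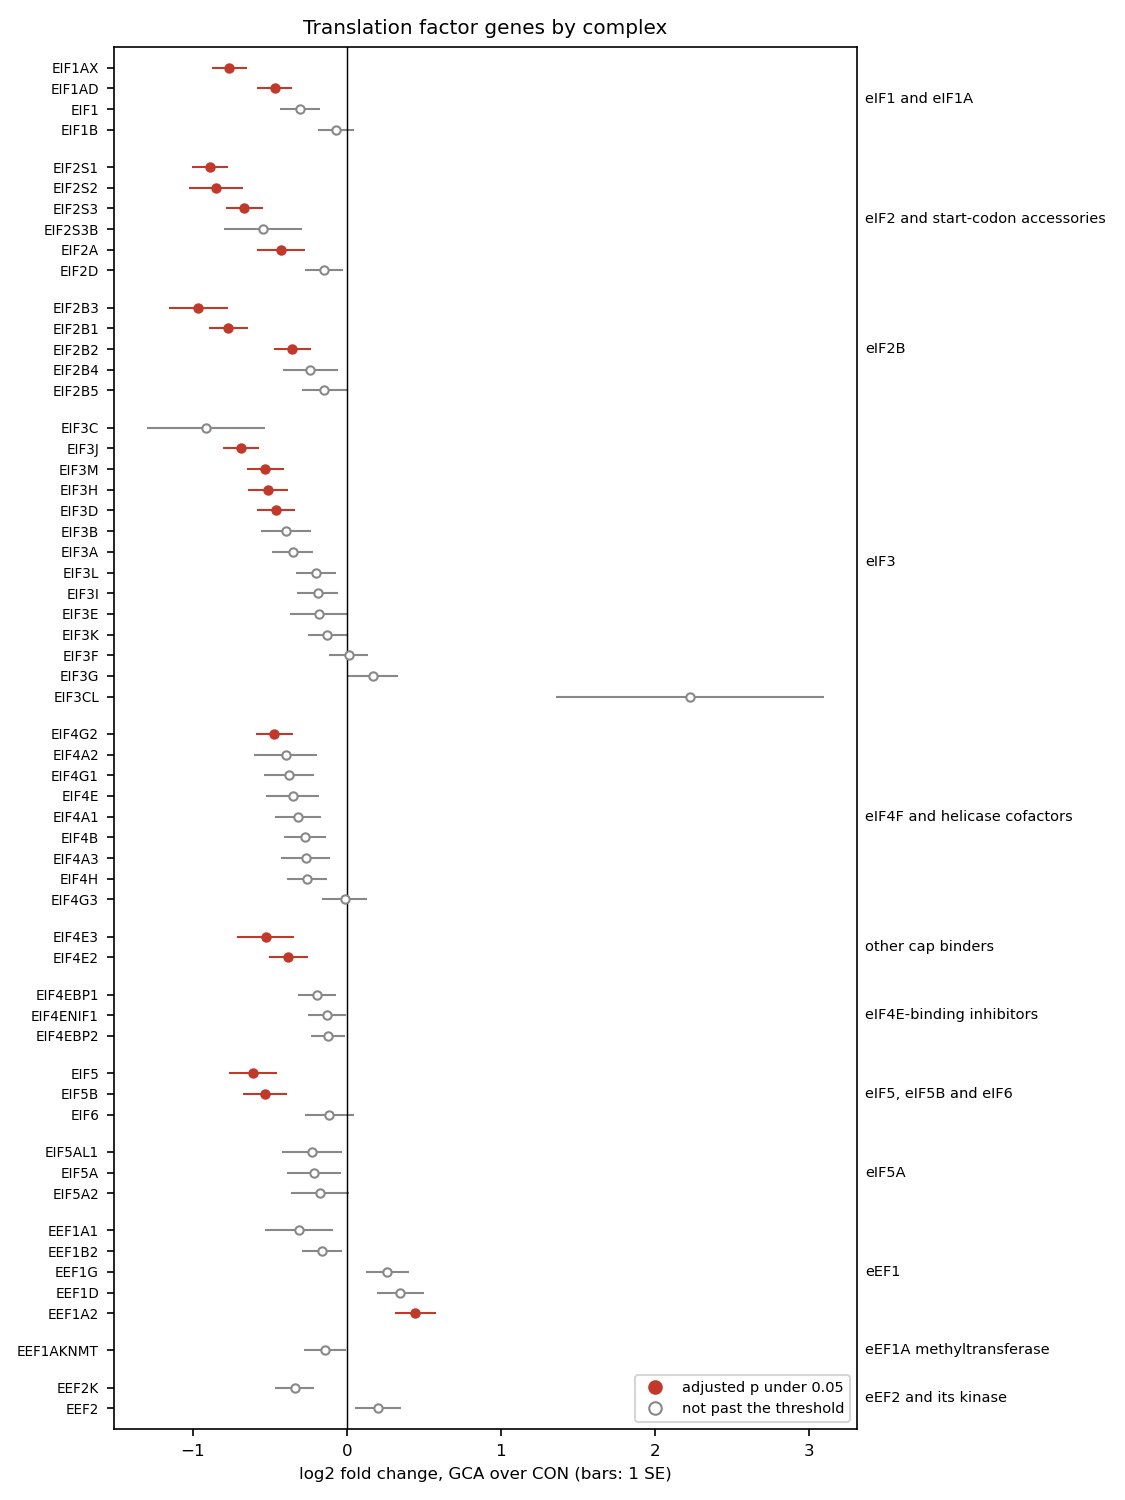
Log2 fold change, GCA over CON, on the horizontal axis for the 57 tested translation factor genes grouped by complex, with bars of 1 SE and filled red points for adjusted p under 0.05. The 18 filled points left of 0 belong to genes with EIF symbols, the 1 to the right is EEF1A2, and EIF3CL at 2.23 has the widest bar.

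The genes of all 3 subunits of eIF2, which carries the initiator tRNA to the ribosome, fell in GCA, beside 18.1% of all genes. EIF2S1, the alpha subunit that stress kinases phosphorylate, lies on chromosome 14, 67360328 to 67386516 (GRCh38.p14) and had 53.5, 57.0 and 51.4 CPM in GCA 1 to 3, against 89.7, 105 and 105 CPM in CON 1 to 3, where CPM is the count scaled to library size with TMM factors. The GCA libraries were close together and all below the CON libraries. Its level averaged 54.0 ± 2.81 CPM in GCA and 99.8 ± 8.82 CPM in CON (SD, n = 3 each), a log2 fold change of -0.89 ± 0.12 (SE, as for all log2 fold changes below) and an adjusted p of 0.000171 by edgeR's quasi-likelihood test.

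EIF2S2, the beta subunit gene on chromosome 20, 34088309 to 34112243, had 64.4, 71.4 and 71.3 CPM in GCA 1 to 3, against 85.0, 140.1 and 148 CPM in CON 1 to 3. CON 1 lay between the GCA libraries and the other CON libraries. The log2 fold change was -0.85 ± 0.18 and edgeR's adjusted p = 0.00293. EIF2S3, the gamma subunit gene on chromosome X, 24054956 to 24078810, binds GTP and the initiator tRNA and had 125, 127 and 117 CPM in GCA 1 to 3, against 172, 203 and 209 CPM in CON 1 to 3. Again the groups did not overlap, and CON 1 was the lowest CON library. The log2 fold change was -0.67 ± 0.12 with edgeR's adjusted p = 0.00131. EIF2S3B, a close copy of EIF2S3, held 1.81% to 2.75% of the counts of the pair in each library, and reads that fit both genes could have been split between them.

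Per gene length, EIF2S3 was the highest of the subunits, at a mean of 35.0 FPKM in GCA and 57.6 FPKM in CON (FPKM is the count scaled to library total and gene length), followed by EIF2S2 at a mean of 22.9 FPKM in GCA and 43.0 FPKM in CON and EIF2S1 at a mean of 12.8 FPKM in GCA and 24.5 FPKM in CON. The accessory factor EIF2A, an eIF2-independent tRNA carrier, had 44.9, 66.1 and 63.3 CPM in GCA 1 to 3, against 67.1, 81.3 and 85.6 CPM in CON 1 to 3. GCA 1 was the lowest of its libraries, and CON 1 lay close to GCA 2. Its log2 fold change was -0.43 ± 0.15 with edgeR's adjusted p = 0.0464, and that call was lost in 12 of 21 alternatives. EIF2D, which can also deliver tRNA to the ribosome, had a log2 fold change of -0.15 ± 0.12 and EIF2S3B one of -0.55 ± 0.25, and neither passed the test.

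Of the 5 subunits of eIF2B, the factor that exchanges GDP for GTP on eIF2, 3 fell and 2 did not pass the test. The 3 made up 60%, beside 18.1% of all genes. The gene that fell most was EIF2B3, which encodes the gamma subunit, the partner of the catalytic subunit, and lies on chromosome 1, 44850522 to 44986595. It had 4.81, 7.23 and 5.76 CPM in GCA 1 to 3, against 10.1, 12.4 and 12.3 CPM in CON 1 to 3, and every GCA library was below every CON library. The log2 fold change was -0.97 ± 0.19 with edgeR's adjusted p = 0.00218. EIF2B1, the alpha subunit in the regulatory core that senses phosphorylated eIF2, lies on chromosome 12, 123620406 to 123633686 and had 27.4, 23.7 and 25.1 CPM in GCA 1 to 3, against 48.1, 43.5 and 38.6 CPM in CON 1 to 3. The groups again did not overlap, with a log2 fold change of -0.77 ± 0.13 and edgeR's adjusted p = 0.000684.

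EIF2B2, the beta subunit of the same core, had 33.8, 34.0 and 31.1 CPM in GCA 1 to 3, against 47.5, 39.6 and 39.3 CPM in CON 1 to 3. All GCA libraries were lower, but by less, with a log2 fold change of -0.35 ± 0.12 and edgeR's adjusted p = 0.0373, and the call was lost in 9 of 21 alternatives. The delta subunit EIF2B4 had 50.2, 47.5 and 44.8 CPM in GCA 1 to 3, against 77.0, 47.1 and 44.0 CPM in CON 1 to 3, and CON 1 alone stood above the GCA libraries. EIF2B5, the catalytic epsilon subunit, had the highest level of the complex per gene length, at a mean of 28.5 FPKM in GCA and 32.4 FPKM in CON. In CPM it had 85.4, 73.1 and 68.1 CPM in GCA 1 to 3, against 102, 76.1 and 72.8 CPM in CON 1 to 3, and the groups overlapped. The log2 fold changes of -0.24 ± 0.18 and -0.15 ± 0.15 had edgeR's adjusted p = 0.324 and 0.458.

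EIF1AX, which encodes the eIF1A protein that keeps the scanning ribosome open for start codon search, fell in GCA. It lies on chromosome X, 20124525 to 20141838 and had 68.4, 71.1 and 63.4 CPM in GCA 1 to 3, against 115, 122 and 107 CPM in CON 1 to 3. The highest GCA library was well below the lowest CON library, and the log2 fold change was -0.76 ± 0.11 with edgeR's adjusted p = 0.000376. EIF1AD, a protein with an eIF1A-like domain, had 28.4, 29.2 and 31.0 CPM in GCA 1 to 3, against 42.2, 40.5 and 39.97 CPM in CON 1 to 3. The groups were separate here too, with a log2 fold change of -0.47 ± 0.11 and edgeR's adjusted p = 0.00670.

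EIF1, a fidelity factor in start codon choice and the most abundant gene of this group per gene length at a mean of 267 FPKM in GCA and 342 FPKM in CON, had 669, 604 and 630.4 CPM in GCA 1 to 3, against 729.9, 755 and 869 CPM in CON 1 to 3. The groups did not overlap, yet the log2 fold change of -0.31 ± 0.13 had edgeR's adjusted p = 0.0801. Its relative EIF1B had a log2 fold change of -0.07 ± 0.12 with edgeR's adjusted p = 0.655.

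**Figure D2:**
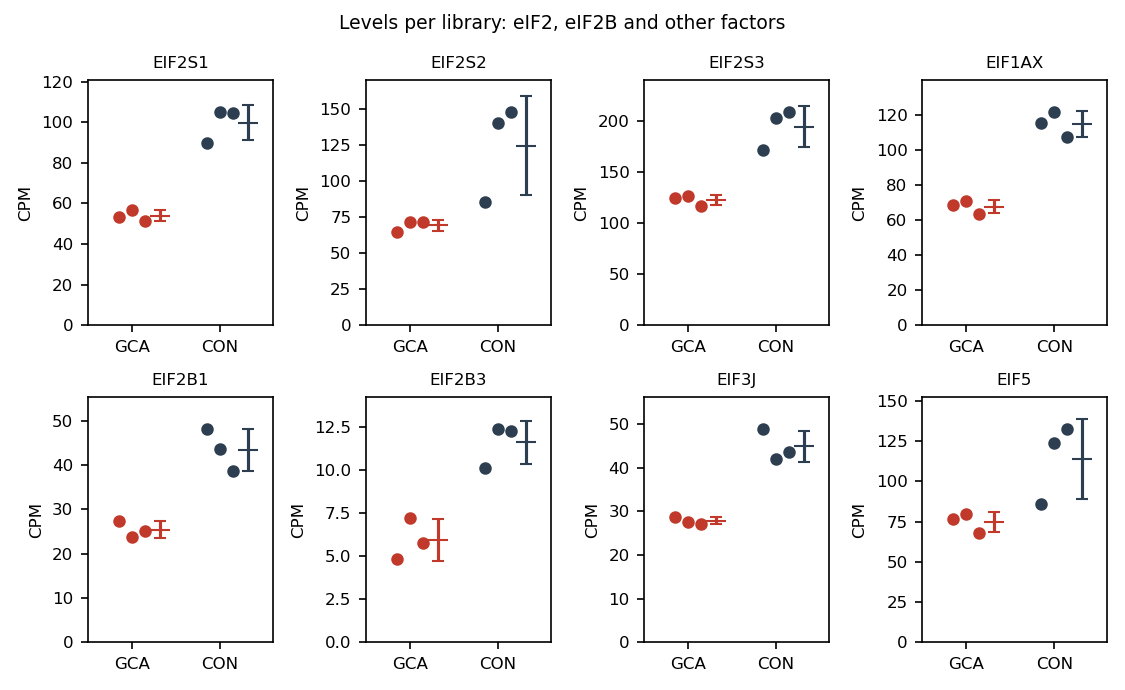
CPM in each library of the 8 genes with the largest falls among called genes whose groups do not overlap, with GCA left of CON, points for single libraries and a bar for the mean and 1 SD. In all 8 panels every GCA point lies below every CON point, and CON 1 is the lowest CON point for EIF2S1, EIF2S2, EIF2S3, EIF2B3 and EIF5.

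The eIF3 complex, the large scaffold that holds the small subunit ready for mRNA, had 4 of 14 tested genes lower, or 28.6%, beside 18.1% of all genes. The median log2 fold change of the 14 was -0.28, and 3 subunits had positive values. EIF3J, a loosely bound subunit at the decoding site, lies on chromosome 15, 44537147 to 44562803 and had 28.7, 27.5 and 27.2 CPM in GCA 1 to 3, against 48.8, 42.1 and 43.7 CPM in CON 1 to 3. The GCA libraries were nearly equal and all lower, with a log2 fold change of -0.69 ± 0.12 and edgeR's adjusted p = 0.000802.

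EIF3M had 99.1, 124 and 113 CPM in GCA 1 to 3, against 158, 163 and 163 CPM in CON 1 to 3. EIF3H had 277, 253 and 245 CPM in GCA 1 to 3, against 319.6, 379 and 407 CPM in CON 1 to 3. EIF3D had 272, 306 and 292 CPM in GCA 1 to 3, against 369, 398 and 429 CPM in CON 1 to 3. All GCA libraries of these 3 genes were below all CON libraries. EIF3M and EIF3H are shell subunits, and EIF3D can itself bind the cap of some mRNAs. Their log2 fold changes were -0.53 ± 0.12, -0.51 ± 0.13 and -0.46 ± 0.12, with edgeR's adjusted p = 0.00482, 0.00897 and 0.0116. The calls for EIF3H and EIF3D were lost without GCA 3 (0.0611 and 0.0570) and without CON 3 (0.0572 and 0.0750).

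Of the core subunits, EIF3A had a log2 fold change of -0.35 ± 0.13 with edgeR's adjusted p = 0.0558, and EIF3B one of -0.40 ± 0.16 with 0.0729. Both passed the test with the replicate block, at an adjusted p of 0.0284 and 0.0300. Without CON 1, EIF3B had a log2 fold change of -0.19 with an adjusted p of 0.119. With the block 7 of the 14 genes were called lower, beside 21.0% of all genes. EIF3K, a subunit with a high level per gene length at a mean of 254 FPKM in GCA and 285 FPKM in CON, had 205, 189 and 195 CPM in GCA 1 to 3, against 248, 194 and 202 CPM in CON 1 to 3. CON 2 and CON 3 lay within the range of the GCA libraries, and the log2 fold change of -0.13 ± 0.13 did not pass the test (edgeR's adjusted p = 0.454). EIF3E, EIF3F, EIF3G, EIF3I and EIF3L ranged in log2 fold change from -0.20 to 0.17, with edgeR's adjusted p from 0.237 to 0.944. Without replicate 1 of both groups EIF3E was called higher, at a log2 fold change of 0.22, and EIF3G at 0.45. With the block and the correction for GC content and length together EIF3G was called lower instead, at -0.25 (adjusted p = 0.0493).

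The near-identical copies EIF3C and EIF3CL could not be measured apart. EIF3C had 64.8, 23.2 and 19.0 CPM in GCA 1 to 3, against 85.6, 77.2 and 39.0 CPM in CON 1 to 3, and EIF3CL had 3.13, 46.0 and 1.78 CPM in GCA 1 to 3, against 5.24, 2.71 and 2.95 CPM in CON 1 to 3. EIF3CL took 4.602%, 66.5% and 8.59% of the counts of the pair in GCA 1 to 3, against 5.76%, 3.39% and 7.04% in CON 1 to 3, so GCA 2 stood alone. The fitted log2 fold change of EIF3CL was 2.23 ± 0.87 in all libraries and -0.56 without GCA 2. The summed counts were 1369, 1359 and 396 in GCA 1 to 3, against 1631, 1533 and 810 in CON 1 to 3. GCA 3 and CON 3 were the low libraries of their groups. EIF3C alone had a log2 fold change of -0.91 ± 0.38 with edgeR's adjusted p = 0.0773, or 0.00251 with the replicate block. The sum, a setting chosen after the data were seen, gave a log2 fold change of -0.43 ± 0.36 with edgeR's adjusted p = 0.364.

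The eIF4F proteins, which recruit mRNA through its cap, mostly did not pass the test. Of 9 genes for eIF4F and its helicase cofactors, EIF4G2 fell and 8 were not called, although all 9 had negative values and the median log2 fold change was -0.32. The 1 lower gene made up 11.1% of the 9, beside 18.1% of all genes. EIF4G2, an eIF4G relative without the eIF4E-binding site, had 404, 396 and 369 CPM in GCA 1 to 3, against 523, 547 and 551 CPM in CON 1 to 3. The GCA libraries were all lower, with a log2 fold change of -0.47 ± 0.12 and edgeR's adjusted p = 0.00876, and the call was lost without GCA 3 (0.0649). EIF4E, the cap-binding subunit on chromosome 4, 98879276 to 98929133, had 52.0, 61.7 and 50.9 CPM in GCA 1 to 3, against 91.5, 64.9 and 54.1 CPM in CON 1 to 3. CON 1 was the only CON library far above the GCA range, and the log2 fold change of -0.35 ± 0.17 had edgeR's adjusted p = 0.122.

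EIF4G1, the main scaffold, had 647, 456 and 517 CPM in GCA 1 to 3, against 806, 709 and 590.2 CPM in CON 1 to 3. GCA 1 lay above CON 3, so the groups overlapped, and the log2 fold change was -0.38 ± 0.16 with edgeR's adjusted p = 0.0836, or 0.0301 with the replicate block. EIF4A1, the main helicase and the highest gene of the complex per gene length at a mean of 510.0 FPKM in GCA and 652 FPKM in CON, had 939, 940.4 and 854 CPM in GCA 1 to 3, against 1363, 1039.6 and 1005 CPM in CON 1 to 3. No GCA library reached a CON library, and CON 1 was the highest, but the log2 fold change of -0.32 ± 0.15 had edgeR's adjusted p = 0.107. EIF4A2, its close paralog, had 79.6, 136 and 131 CPM in GCA 1 to 3, against 110.3, 171 and 175 CPM in CON 1 to 3. Replicate 1 was the low library of both groups, and the log2 fold change of -0.40 ± 0.21 passed the test with the replicate block (0.148 without and 0.0106 with it, by edgeR).

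Both tested relatives of the cap binder EIF4E fell, beside 18.1% of all genes. EIF4E2, a cap binder that represses translation, had 55.1, 48.9 and 49.5 CPM in GCA 1 to 3, against 75.5, 64.8 and 59.7 CPM in CON 1 to 3. Its GCA libraries were all lower, with a log2 fold change of -0.38 ± 0.12 and edgeR's adjusted p = 0.0302, which was lost in 5 of 21 alternatives. EIF4E3 had 7.34, 6.82 and 5.34 CPM in GCA 1 to 3, against 8.13, 9.96 and 10.05 CPM in CON 1 to 3. The groups did not overlap, with a log2 fold change of -0.53 ± 0.19 and edgeR's adjusted p = 0.0411, lost in 10 of 21. EIF4E1B, a germ-cell relative of EIF4E, had 13, 18 and 3 counts in GCA 1 to 3, against 1, 5 and 3 in CON 1 to 3. With all 6 libraries it was below the filter on low counts. It passed that filter without CON 1, CON 2 or CON 3, and was not called there (log2 fold changes from 1.44 to 2.37, edgeR's adjusted p from 0.0637 to 0.113). It also passed without GCA 3, and was called higher there (2.25, edgeR's adjusted p = 0.0283).

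EIF4EBP1 encodes the 4E-binding protein that holds eIF4E back until mTORC1 phosphorylates it, and it is known as a target of ATF4. It lies on chromosome 8, 38030534 to 38060365 and had 266, 238 and 252 CPM in GCA 1 to 3, against 308, 261 and 297 CPM in CON 1 to 3. CON 2 lay within the range of the GCA libraries, so the groups overlapped. The log2 fold change was -0.19 ± 0.12 with edgeR's adjusted p = 0.228, which ranged from 0.00188 to 0.481 over the alternatives. The smallest value came with the correction for GC content and length, where its log2 fold change was -0.76. Among the other inhibitors, EIF4EBP2 had -0.12 ± 0.11 and the eIF4E transporter EIF4ENIF1 -0.13 ± 0.13 as log2 fold changes, and neither passed the test. EIF4EBP3 had at most 2 counts in any library, under the floor of 3 counts per library that a count of 0 allows.

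By contrast, all 11 tested genes of a list of ATF4 regulators and targets fell, beside 18.1% of all genes, and their median log2 fold change was -1.17. ATF4 itself had a log2 fold change of -0.49 ± 0.13 with edgeR's adjusted p = 0.0120, and the pseudokinase gene TRIB3 one of -1.14. CHAC1, which breaks down glutathione, had -1.17, PSAT1 of serine synthesis had -1.20 and DDIT3, which encodes CHOP, had -2.14. With the replicate block 10 of the 11 were called lower. ASNS, asparagine synthetase, was the exception (edgeR's adjusted p = 0.0352 without and 0.0601 with the block). The list was chosen with earlier results of these data known, and its direction is no independent evidence. SESN2 and DDIT4, which restrain mTORC1, stand in this list and in the mTORC1 list below. EIF4EBP1 was thus not called where every tested gene of this list was, and the difference between them was not tested. This holds for the fit without the correction for GC content and length. With that correction EIF4EBP1 was called lower (edgeR's adjusted p = 0.00188), as were 10 of the 11 genes, and ASNS was not called (0.206).

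**Figure D3:**
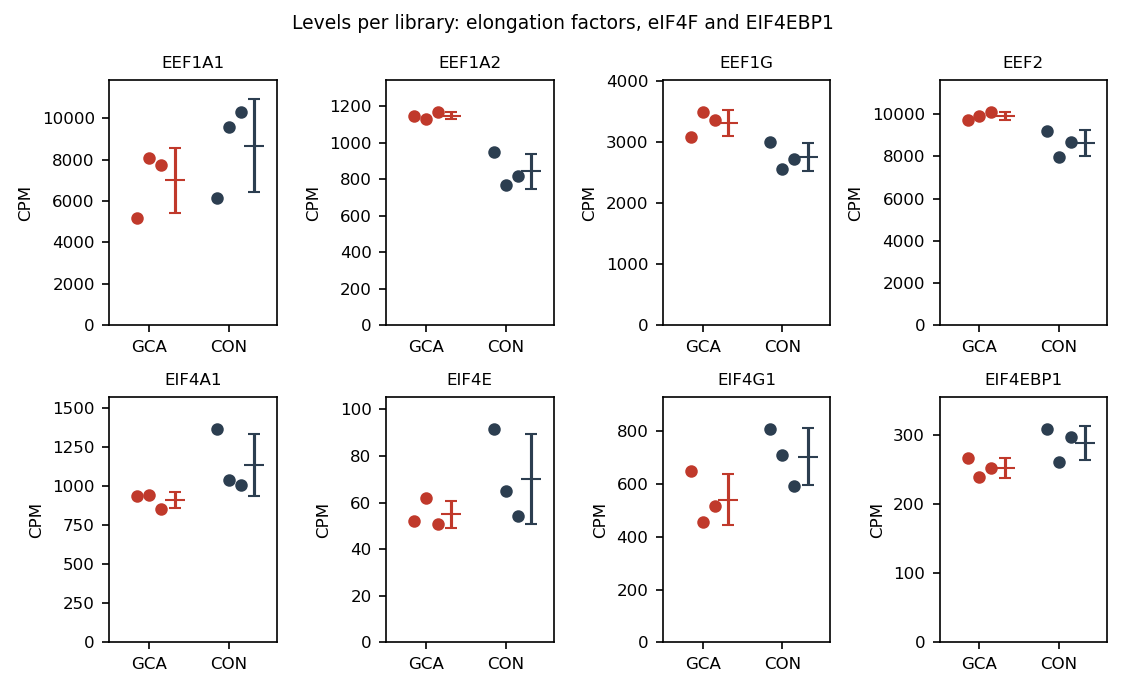
CPM in each library of 4 elongation factor genes, 3 eIF4F genes and EIF4EBP1, with GCA left of CON, points for single libraries and a bar for the mean and 1 SD. The EEF1A2 points of GCA all lie above those of CON, the EIF4EBP1 points overlap, and replicate 1 is the low EEF1A1 point of both groups.

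Of the factors of the last initiation steps, EIF5 and EIF5B fell, beside 18.1% of all genes, and EIF6 was not called. EIF5, which makes eIF2 hydrolyse its GTP at the start codon, had 76.8, 79.9 and 67.8 CPM in GCA 1 to 3, against 85.8, 124 and 132 CPM in CON 1 to 3. CON 1 was the lowest control and lay just above the GCA libraries, and the log2 fold change was -0.61 ± 0.16 with edgeR's adjusted p = 0.00921. EIF5B, the GTPase that joins the large subunit, had 44.9, 47.0 and 35.2 CPM in GCA 1 to 3, against 71.9, 57.6 and 54.4 CPM in CON 1 to 3. The groups did not overlap, GCA 3 was the lowest library, and the log2 fold change was -0.53 ± 0.15 with edgeR's adjusted p = 0.0129. Without GCA 3 neither call held (0.0625 and 0.0812).

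EIF6, which keeps free large subunits from joining too early, had the highest level per gene length of these 3, at a mean of 244 FPKM in GCA and 269.8 FPKM in CON. It had 304, 307 and 297 CPM in GCA 1 to 3, against 424, 276 and 283 CPM in CON 1 to 3. Only CON 1 lay above the GCA libraries, and the log2 fold change of -0.11 ± 0.16 had edgeR's adjusted p = 0.604. EIF5A, the hypusine-carrying factor that helps ribosomes past difficult stretches, had 1716, 1368 and 1404 CPM in GCA 1 to 3, against 2208, 1509 and 1489 CPM in CON 1 to 3. The groups overlapped, with a log2 fold change of -0.21 ± 0.17 and edgeR's adjusted p = 0.354. Without CON 1 its log2 fold change was -0.0046. EIF5A2 and the near copy EIF5AL1, which held 2.64% to 3.11% of the counts of its pair with EIF5A, did not pass the test either (-0.17 ± 0.19 and -0.23 ± 0.20).

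Among the elongation factors EEF1A2 alone was called, as higher in GCA, beside 18.3% of all genes. It encodes the eEF1A form known from neurons and muscle, which some tumours also express, and lies on chromosome 20, 63488014 to 63499083. It had 1148, 1128 and 1169 CPM in GCA 1 to 3, against 952, 766 and 815 CPM in CON 1 to 3. The GCA libraries were nearly equal and above every CON library. Its level averaged 1148 ± 20.2 CPM in GCA and 844 ± 96.3 CPM in CON (SD, n = 3 each), a log2 fold change of 0.44 ± 0.13 with edgeR's adjusted p = 0.0206. The call was lost without GCA 2 (0.0604), GCA 3 (0.0949), CON 2 (0.102) or CON 3 (0.0847), and the correction for GC content and length gave a log2 fold change of -0.0040 (adjusted p = 0.979).

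EEF1A1, the widespread form on chromosome 6, 73515750 to 73521032, had 5187, 8075 and 7746 CPM in GCA 1 to 3, against 6138, 9598 and 10309 CPM in CON 1 to 3. Replicate 1 was far lower than the others in both groups, and the groups overlapped. The log2 fold change of -0.31 ± 0.22 had edgeR's adjusted p = 0.284, and without CON 1 it was -0.51 with an adjusted p of 0.0128. The ratio of EEF1A1 to EEF1A2 in FPKM was 2.28, 3.61 and 3.35 in GCA 1 to 3, against 3.26, 6.32 and 6.38 in CON 1 to 3. GCA 2 and GCA 3 were above CON 1, so the groups overlapped. The difference of the mean log2 ratios was -0.75 (exact two-sided permutation p = 0.300, adjusted p = 0.787 over 9 paralog pairs). With 3 against 3 libraries the smallest p that this test can give is 0.10, and no other pair had an adjusted p below 0.787. The ratio was lower in GCA in 3 of the 3 same-numbered pairs of libraries. Pairing by number, a setting chosen after the data were seen, gave an exact two-sided sign-flip p = 0.25, the smallest that 3 pairs can give.

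The subunits of the eEF1B exchange complex did not pass the test. EEF1G had 3079.8, 3497 and 3368 CPM in GCA 1 to 3, against 3012, 2559.9 and 2721 CPM in CON 1 to 3, and its GCA libraries were all above CON. Its log2 fold change was 0.26 ± 0.14 with edgeR's adjusted p = 0.160. EEF1D and EEF1B2 had log2 fold changes of 0.35 ± 0.15 and -0.16 ± 0.13 with edgeR's adjusted p = 0.0928 and 0.343. Without CON 1, EEF1D and EEF1G passed the test as higher in GCA (0.53 with an adjusted p of 0.000389, and 0.33 with 0.0138).

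EEF2, the translocase on chromosome 19, 3976056 to 3985463, had the highest level per gene length of all 59 genes, at 3091 ± 55.8 FPKM in GCA and 2768 ± 110 FPKM in CON (SD). In CPM it had 9746, 9903 and 10111 CPM in GCA 1 to 3, against 9195, 7966 and 8702 CPM in CON 1 to 3. The GCA libraries were all higher, but the log2 fold change of 0.20 ± 0.15 had edgeR's adjusted p = 0.299, and without CON 1 it was 0.25 with an adjusted p of 0.0427. EEF2K, the kinase that switches eEF2 off, had 48.3, 36.2 and 39.9 CPM in GCA 1 to 3, against 53.0, 53.4 and 50.8 CPM in CON 1 to 3. All GCA libraries were lower, with a log2 fold change of -0.34 ± 0.13 and edgeR's adjusted p = 0.0540, or 0.0365 with the replicate block. EEF1AKNMT had a log2 fold change of -0.14 ± 0.14 and did not pass.

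**Figure D4:**
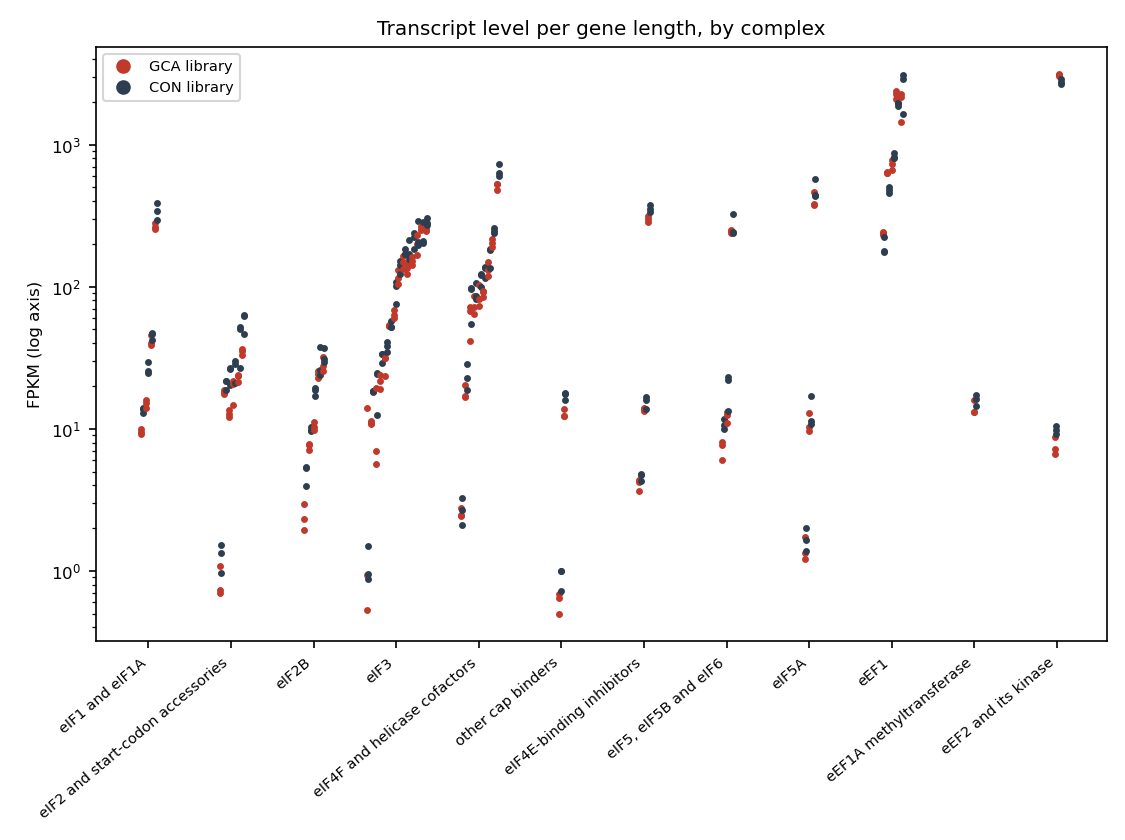
FPKM on a log axis in each GCA (red) and CON (dark) library of the 57 tested genes, by complex. The elongation factors EEF2, EEF1A1 and EEF1G stand highest, with group means of 1937 FPKM or more, while the group means of the eIF2 and eIF2B genes are 57.6 FPKM or less.

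Upstream of the starts, the E-box and the ATF4 element were counted in the 250 bases before each RefSeq start. The E-box, CACGTG, is read by MYC and by the TFE family and is the same on both strands. It stood in 12 of the 65 windows, or 18.5%, against 6.34% of 35116 windows over all genes. The ATF4 element TGATGNAA, on either strand, stood in 1 of 65, or 1.54%, that of EIF4E3, against 3.14% of all windows. EIF4EBP1, EIF2S2, EIF3H and EEF1A2 had no matched start site, so their windows were searched for neither motif. No gene's windows held both motifs, and a match is a description of letters only. The windows with an E-box belonged to EEF2K, EIF1B, EIF2B3, EIF3F, EIF3K, EIF4A3, EIF4B, EIF4E, EIF4EBP3, EIF4G1, EIF4H and EIF5A2. Of these 12, EIF4EBP3 was not tested, and EIF2B3 alone of the rest was called, as lower in GCA. Among all 57 tested translation factor genes 33.3% were called, and over all genes 36.4%.

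The upstream windows of EIF4E and EIF2B3 are printed to show the E-boxes, in capitals, and that of EIF2S1, which fell without one, is set beside them. They read 5′ to 3′ on the gene's strand and end at the base before the start, at chr4:98929134-98929383 on the minus strand for EIF4E, chr1:44986596-44986845 on the minus strand for EIF2B3 and chr14:67360078-67360327 on the plus strand for EIF2S1 (RefSeq, GRCh38.p14). The E-boxes begin 225 and 72 bases before the start in EIF4E and 179 bases before it in EIF2B3.
EIF4E: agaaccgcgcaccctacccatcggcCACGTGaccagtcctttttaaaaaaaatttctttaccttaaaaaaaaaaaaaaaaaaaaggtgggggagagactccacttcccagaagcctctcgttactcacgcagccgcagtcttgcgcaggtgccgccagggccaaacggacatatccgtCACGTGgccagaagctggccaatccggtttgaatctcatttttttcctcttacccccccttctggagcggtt
EIF2B3: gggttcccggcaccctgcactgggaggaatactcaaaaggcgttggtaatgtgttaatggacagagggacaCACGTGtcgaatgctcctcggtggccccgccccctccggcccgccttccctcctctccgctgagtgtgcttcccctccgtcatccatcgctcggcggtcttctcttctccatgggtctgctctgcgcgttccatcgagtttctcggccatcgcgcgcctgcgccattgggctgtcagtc
EIF2S1: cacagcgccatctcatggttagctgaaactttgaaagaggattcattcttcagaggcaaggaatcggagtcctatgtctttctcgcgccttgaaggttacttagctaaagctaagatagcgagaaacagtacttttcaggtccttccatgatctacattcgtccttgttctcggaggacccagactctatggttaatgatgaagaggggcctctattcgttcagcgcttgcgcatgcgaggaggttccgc

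Of the 13 tested genes with a pyrimidine run at a RefSeq start, 4 were called, EIF2S3, EIF3D, EIF3M and EIF2A, all lower in GCA. Among all 57 tested translation factor genes 33.3% were called and 31.6% fell, and over all genes 36.4% were called and 18.1% fell. The calls of EIF3M and EIF2A were lost with the correction for GC content and length. For the 13 genes, the values were as follows. Their log2 fold changes were negative in 11 and positive in 2, EEF2 and EIF3F, beside 50 negative of all 57 genes. EIF2S1, EIF2B1 and EIF1AX fell without such a run. Of 10 genes on a list of known terminal oligopyrimidine mRNAs, EIF3H fell, EEF1A2 rose, and the median log2 fold change was -0.07, beside -0.04 for all genes.

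Other genes of the translation pathway were counted from lists chosen with earlier results of these data known. Termination, recycling and rescue factors had 6 of 8 tested genes lower, or 75%, beside 18.1% of all genes, with a median log2 fold change of -0.51. They include ETF1, the release factor that reads stop codons (-0.75, edgeR's adjusted p = 0.000407), and ABCE1, which splits ribosomes after release (-0.76, edgeR's adjusted p = 0.000645). DENR, MCTS1, GSPT1 and HBS1L were the others, at -0.67, -0.51, -0.50 and -0.41. The replicate block added ABCF1 as lower (edgeR's adjusted p = 0.0703 without and 0.0206 with it). That made 7 of the 8 lower, beside 21.0% of all genes with the block. With the correction for GC content and length, 3 of the 8 were called lower, ETF1, ABCE1 and DENR, beside 14.8% of all genes. Of 7 poly(A)-binding proteins and their partners 3 fell, or 42.9%, beside the same 18.1%. These were PABPC1 (-0.58), PABPC4 (-0.56) and LARP1 (-0.48), with a median of -0.29 for the list. Here the block added PAIP2 as lower, for 4 of 7 (edgeR's adjusted p = 0.0648 without and 0.0450 with it).

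Among 12 eIF2 kinases, phosphatase subunits and their partners 3 fell, which is 25%, and the median log2 fold change was -0.29. Over all genes 36.4% were called and 18.1% fell. EIF2AK4, the amino acid sensor GCN2, had a log2 fold change of -0.60 (edgeR's adjusted p = 0.00421), PPP1R15B, a targeting subunit for eIF2 dephosphorylation, one of -0.61 (edgeR's adjusted p = 0.0118), and the phosphatase gene PPP1CC one of -0.62 (edgeR's adjusted p = 0.00290). EIF2AK1, EIF2AK2 and EIF2AK3 had -0.26, 0.14 and -0.01 and did not pass. The replicate block kept the 3 lower calls and added PPP1CA as higher (edgeR's adjusted p = 0.0688 without and 0.0287 with it). With the correction for GC content and length PPP1CC stayed lower (edgeR's adjusted p = 0.0334). EIF2AK4 and PPP1R15B then lost the call (0.0978 and 0.137), and EIF2AK2 was called higher (0.51, edgeR's adjusted p = 0.00851). Over all genes 27.7% were called with that correction and 14.8% were lower. In the list of mTORC1 inputs 4 of 15 fell, or 26.7%, and the median was -0.07, beside -0.04 for all genes. DDIT4 and SESN2 had -1.19 and -1.09, MTOR had -0.53 and TSC1 had -0.42. The block kept these 4 calls and added DEPTOR and TSC2 as higher. Their adjusted p by edgeR was 0.0552 and 0.0638 without the block, and 0.0297 and 0.0495 with it. With the correction for GC content and length DDIT4 and SESN2 stayed lower. MTOR and TSC1 then lost the call (edgeR's adjusted p = 0.215 and 0.169). MKNK2 was called lower instead and MKNK1 higher (edgeR's adjusted p = 0.00365 and 0.0458). A list of 17 genes held modifiers of eIF5A, eEF1A and eEF2, and also PSTK, SECISBP2, EEFSEC and EEF1E1, which are not such modifiers. On it EEF2KMT, DPH5 and SECISBP2 fell and PSTK and DHPS rose. That is 29.4% called and 17.6% lower, beside 36.4% and 18.1% of all genes. With the correction for GC content and length EEF2KMT and PSTK kept the call. DPH5, SECISBP2 and DHPS lost it (edgeR's adjusted p = 0.310, 0.131 and 0.534), and DOHH, DPH2 and DPH7 were called lower.

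Fold changes followed the GC content of the transcripts, here as over all genes. Across 12568 genes the Pearson correlation of log2 fold change with GC content was 0.48, and across the 57 translation factor genes it was 0.44, or 0.55 without EIF3CL. Genes within a sample are not independent, and these values share all 6 libraries. The eIF2 subunit genes have 39.6%, 45.2% and 42.5% GC in EIF2S1, EIF2S2 and EIF2S3, EIF3J has 38.8%, EEF2 57.6%, EIF4EBP1 62.0% and EEF1A2 62.3%. Low-GC genes lay mostly among the lower values and high-GC genes among the higher ones.

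With a correction of each library for GC content and length, the correlation was 0.02 over all genes and -0.05 over the translation factor genes, or -0.22 without EIF3CL, and 17 of these genes were called, all lower. That is 29.8% of them, beside 27.7% of all genes called and 14.8% lower, and 11 of the 17 are among the 18 lower genes named first. These 11 are EIF1AD, EIF1AX, EIF2S1, EIF2S2, EIF2S3, EIF2B1, EIF2B3, EIF3D, EIF3J, EIF4G2 and EIF5. The calls of EEF1A2, EIF2A, EIF2B2, EIF3H, EIF3M, EIF4E2, EIF4E3 and EIF5B were lost, and EIF3B, EIF3K, EIF4A1, EIF4EBP1, EIF4G1 and EIF6 were called lower instead. The log2 fold changes of the eIF2 subunits with the correction were -0.54 for EIF2S1, -0.59 for EIF2S2 and -0.35 for EIF2S3, each still lower in GCA (edgeR's adjusted p = 0.00186, 0.0238 and 0.0131). EIF4EBP1 had -0.76 (edgeR's adjusted p = 0.00188). The median of the 57 genes was -0.22. Whether GC content plays a part in the differences between the groups was not tested.

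**Figure D5:**
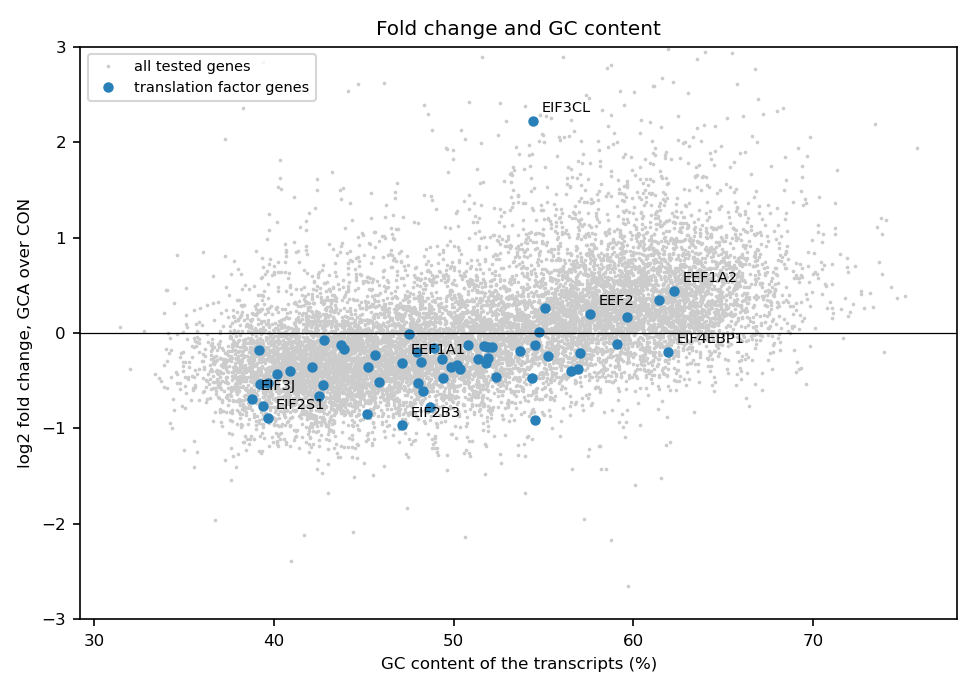
Log2 fold change, GCA over CON, on the vertical axis against the GC content of the transcripts in percent, for all tested genes (grey) and the translation factor genes (blue), with 43 genes outside the drawn range of fold changes. The blue points rise with GC content, with EIF2S1 at 39.6% GC near the bottom left and EEF1A2 at 62.3% GC on the upper right.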

How the data were processed

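RNA was sequenced in 3 GCA and 3 CON libraries. The authors deposited raw counts per gene and FPKM values for 16229 genes. Reads were handled with HISAT2 2.2.1.0, HTSeq 0.11.2 and fastp 0.20.1 on hg38, per the submitters' processing notes. No source used here states the strand setting. The deposited FPKM equals the count over the library total and 1 length per gene for 16229 of 16229 genes, within a relative tolerance of 1e-09, so it adds no independent measurement.

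Counts were tested with edgeR 4.0.16 in R 4.3.3 (TMM, filterByExpr with a minimum count of 10 and a minimum total of 15, glmQLFit, glmQLFTest) and Benjamini-Hochberg adjustment at 0.05, and 12604 genes entered. The procedure was tested on simulated counts that held no trend with GC content and no replicate effect. It was therefore not tested for those features of these data. SE is the log2 fold change over the square root of F. Library totals ran from 18057453 to 20531612, which limits genes near the floor of 3 counts (0.149 to 0.167 CPM), a limit for counting error only. Replicates differed by a chi-square of 4.87 to 45.8 per gene, more than sampling noise.

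Members and lists were chosen with earlier results of these data known. Given in full were the 8 largest falls and rises past the threshold without overlap, the gene with the highest FPKM of each complex, EIF4EBP1, EIF4E, EIF4G1 and EEF2K. Same-numbered libraries deviated together across genes (correlations 0.206, 0.137 and 0.104, each over the limit of 0.1, against -0.172 to 0.0954 for other pairs), so the numbers count as pairing by that limit. The labels give no shared source, and the fit reported has no block. Blocked values stand where the block changes a call of a translation factor gene or of a gene in the lists. GC content is from GENCODE transcripts, matched for 99.3% of genes, and was corrected with length by a smooth curve per library (mgcv 1.9.3). Coordinates and sequences are from NCBI RefSeq, GRCh38.p14.

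Alternatives were DESeq2 1.42.0 (size factors or its Wald test), upper quartile or library size scaling, other filters, limma 3.58.1 (voom, log2(FPKM + 1), log2(FPKM + 0.1)), the replicate block, the GC correction, both together, and leaving out each library.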

Additional observations from a re-analysis of the deposited data

How the results depend on the processing

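Of 1196 values of single genes under the alternatives, 1007 kept their direction and side of the threshold, 55 lost the call, 90 gained it and 44 changed sign. Leaving out single libraries gave 11 to 31 genes called, 0 to 6 higher and 9 to 25 lower, and 2621 to 6707 among all genes. Without replicate 1 of both groups the counts were 37, 7, 30 and 7419. The other settings gave 16 to 25 genes called. The count of higher genes was 2 without a filter and with log2(FPKM + 1) or log2(FPKM + 0.1), and 0 with the GC and length correction, with or without the block. The replicate block gave 25 genes called and 5163 over all genes, and it lost none of the 19 calls and added EEF2K, EIF3A, EIF3B, EIF3C, EIF4A2 and EIF4G1. Depth limits EIF4E1B and EIF4EBP3, which had at most 18 and 2 counts in a library.

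These log2 fold changes changed sign. EIF4G3 was at 0.00321 with DESeq2's Wald test, 0.00327 with its size factors and 0.0126 with a filter at 1 CPM. EIF3F was at -0.0261 with library size only, -0.0249 and -0.0245 with log2(FPKM + 0.1) and log2(FPKM + 1), and -0.00675 with upper quartile scaling. With the GC correction, EEF1A2 was at -0.00398, EEF1D at -0.000157, EEF2 at -0.0366, EIF1B at 0.0719, EIF3E at 0.0924, EIF3F at -0.0596, EIF3G at -0.255, EIF4EBP2 at 0.202, EIF4G3 at 0.239, EIF5A2 at 0.150 and EIF5AL1 at 0.0132. With the block as well, EEF1A2 was at -0.00421, EEF2 at -0.0365, EIF1B at 0.0670, EIF3E at 0.143, EIF3F at -0.0454, EIF3G at -0.250, EIF4EBP2 at 0.204, EIF4G3 at 0.241, EIF5A2 at 0.132 and EIF5AL1 at 0.0657. The causes were not tested. Leaving out single libraries gave EIF2B4 -0.374 to 0.0596, EIF2B5 -0.226 to 0.0197, EIF3CL -0.557 to 2.76, EIF3E -0.305 to 0.0862, EIF3F -0.0302 to 0.116, EIF4G3 -0.120 to 0.130, EIF5AL1 -0.360 to 0.0823 and EIF6 -0.213 to 0.113. Without replicate 1 of both groups EIF1B was at 0.00594, EIF2B4 at 0.0441, EIF3E at 0.224 and EIF6 at 0.135. Differences in the log2 ratio of paralogs ran from -0.169 to 0.455 for EIF4A1 over EIF4A2, -0.205 to 0.245 for EIF5A over EIF5A2, -0.0408 to 0.221 for EIF4G1 over EIF4G2, -0.0684 to 0.167 for EIF4E over EIF4E2, -0.0125 to 0.519 for EIF4E over EIF4E3 and -0.169 to 0.00413 for EIF4EBP1 over EIF4EBP2.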
